A study of Homo sapiens with 12 samples.

Results

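The results concern 46 genes of mitosis and the spindle assembly checkpoint, chosen by name as a list of gene symbols and found through their Ensembl IDs among the 57992 genes of a count table. They were followed in 9 RNA sequencing libraries, 3 replicate libraries each of 3 human prostate adenocarcinoma cell lines. MR49F is an enzalutamide-resistant line that descends from LNCaP, C4-2 is a castration-resistant LNCaP subline recorded as sensitive to enzalutamide, and LNCaP is the androgen-responsive parent line, also recorded as sensitive. Enzalutamide is an antiandrogen used against prostate cancer. All 3 lines thus share the LNCaP genome as origin, MR49F is a single resistant line, and neither drug in the medium, passage nor cell density is given in the labels. No label says that the replicates came from separate cultures, so p-values measure the spread between these libraries, which may be technical.

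A dividing cell enters mitosis when CDK1, bound to cyclin A or B, is switched on by CDC25 phosphatases. Kinetochores then capture spindle microtubules, and the spindle checkpoint proteins (BUB1, BUBR1, BUB3, MAD2 and MPS1) hold back the anaphase-promoting complex (APC/C) until every chromosome is attached. CDC20 then activates the APC/C, securin and cyclin B are degraded, separase cuts cohesin, and the chromosomal passenger complex, centralspindlin and the contractile ring complete division. Transcripts of these genes accumulate late in the cell cycle through FOXM1, B-MYB and the MuvB complex, which binds the CHR element of their promoters, often near CCAAT boxes bound by NF-Y. In bulk RNA a smaller share of cells in division and less of a transcript per dividing cell cannot be told apart.

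RefSeq promoter windows (build GRCh38.p14, 250 bases before to 50 after a transcript start) were at hand for 39 of the 46 genes, with 51 windows among them; AURKA, BUB3, TTK, TPX2, BIRC5, UBE2C and FOXM1 had none. The windows shown belong to PLK1, a mitotic kinase gene that was lower in MR49F than in either other line, KIF23, the kinesin gene that was higher in MR49F than in either, CCNB1, the cyclin gene whose pattern differed from most of the list, and MYBL2, the gene of a factor that acts on the others. Each is written 5′ to 3′ on the gene's own strand, and capitals mark matches on either strand to the motifs searched. The CHR element was spelled TTTGAA and, in its other common form, was spelled TTCGAA. The CCAAT box was searched by its name's letters. The E2F element was spelled TTTGGCGC, TTTGCCGC, TTTCGCGC or TTTCCCGC.
PLK1 (chr16:23678639-23678938, plus strand): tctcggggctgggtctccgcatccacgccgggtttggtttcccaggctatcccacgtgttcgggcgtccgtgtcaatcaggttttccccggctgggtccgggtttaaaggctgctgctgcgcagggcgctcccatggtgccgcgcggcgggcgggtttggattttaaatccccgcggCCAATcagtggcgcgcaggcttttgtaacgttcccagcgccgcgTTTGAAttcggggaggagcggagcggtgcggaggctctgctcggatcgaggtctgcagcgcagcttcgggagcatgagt
KIF23 (chr15:69414099-69414398, plus strand): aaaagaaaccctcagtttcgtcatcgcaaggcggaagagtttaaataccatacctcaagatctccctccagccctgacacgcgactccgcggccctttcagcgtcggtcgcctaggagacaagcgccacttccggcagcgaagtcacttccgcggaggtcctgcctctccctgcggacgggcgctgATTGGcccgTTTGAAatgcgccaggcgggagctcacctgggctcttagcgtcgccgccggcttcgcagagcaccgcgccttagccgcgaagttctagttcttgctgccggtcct
CCNB1 (chr5:69166900-69167199, plus strand): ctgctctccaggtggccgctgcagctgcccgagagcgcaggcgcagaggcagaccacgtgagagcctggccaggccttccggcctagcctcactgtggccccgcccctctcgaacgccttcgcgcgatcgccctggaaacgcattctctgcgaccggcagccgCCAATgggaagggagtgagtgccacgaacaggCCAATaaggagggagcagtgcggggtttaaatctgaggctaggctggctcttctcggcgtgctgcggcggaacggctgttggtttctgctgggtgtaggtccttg
MYBL2 (chr20:43666864-43667163, plus strand): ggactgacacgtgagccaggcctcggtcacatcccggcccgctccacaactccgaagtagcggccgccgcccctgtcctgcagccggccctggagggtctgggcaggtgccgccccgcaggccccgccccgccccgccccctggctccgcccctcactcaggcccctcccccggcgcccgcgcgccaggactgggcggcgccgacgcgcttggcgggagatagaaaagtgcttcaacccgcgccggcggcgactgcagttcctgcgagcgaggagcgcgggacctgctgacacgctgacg

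The PLK1 window held a CCAAT box starting at position -73 and a CHR element at -29, counted from the RefSeq start. The KIF23 window held the same pair, the CCAAT box on the other strand at -64 and the CHR element at -55. CCNB1 had CCAAT boxes at -87 and -55 and no CHR element of these letters. MYBL2 had no match to the letters searched for any of the 3 motifs. Other spellings of these elements were not searched. Over the list, 33 of 51 windows held a CHR element, which is 64.7%, against 16.4% of 34943 RefSeq promoter windows. A CCAAT box was found in 37 of 51, or 72.5%, against 34.6% of all windows. Both together stood in 52.9% of the list's windows and in 6.40% of all windows. E2F elements were found in 4 of 51 windows (7.84%) and in 3.30% of all windows. The E2F matches belonged to CDK1, CENPA and NUSAP1 and stand at 3 distinct sites, since both CDK1 windows hold the same one. The letters of none of the motifs contain those of another.

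**Figure D1:**
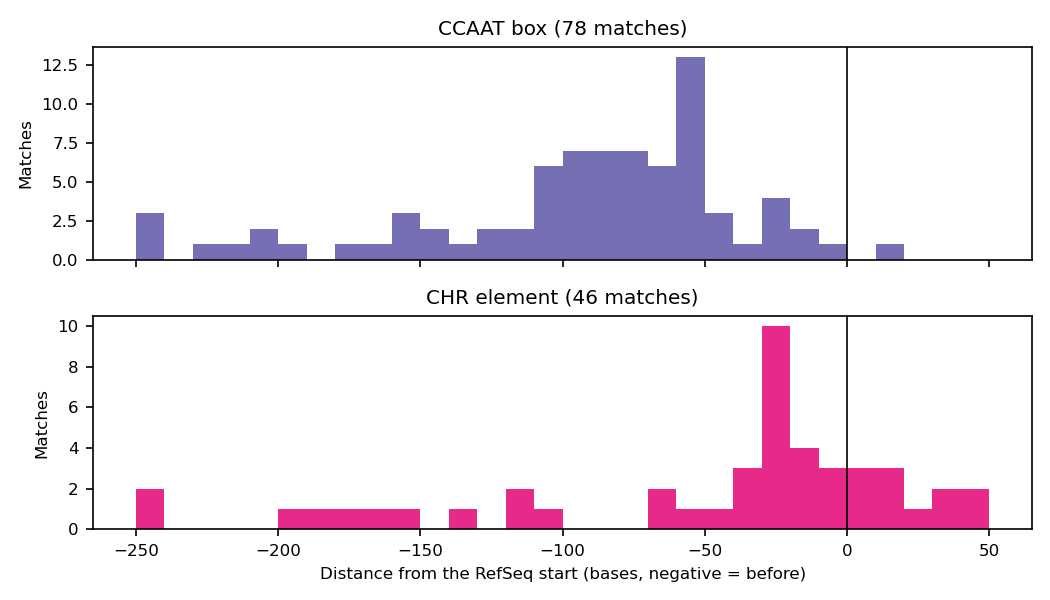
Positions of the CCAAT boxes and CHR elements in the 51 promoter windows of the list, in bins of 10 bases, with the number of matches on the vertical axis and the distance from the RefSeq start on the horizontal axis. Windows of the same gene can overlap, so the 78 CCAAT matches stand at 73 distinct sites and the 46 CHR matches at 44. Of the CCAAT matches, 51 began in the 100 bases before the start, with a median position of -85.5, and of the CHR matches 24 did, with a median position of -28.0.

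The fold changes were set beside the motifs as a description. In MR49F against LNCaP, the 30 genes with a CHR element had a median log2 fold change of -0.32 and the 9 without had one of -0.31. Genes with (32) and without (7) a CCAAT box had medians of -0.31 and -0.33 in that comparison. In MR49F against C4-2 the medians were -0.37 with and -0.53 without a CHR element, and -0.39 with and -0.53 without a CCAAT box. In C4-2 against LNCaP they were 0.17 with and 0.19 without a CHR element, and 0.15 with and 0.35 without a CCAAT box. There 10 of 30 genes with and 5 of 9 without a CHR element were higher. For the CCAAT box these counts were 10 of 32 and 5 of 7, beside 26.2% of all tested genes. A match is only a description of these letters, and no factor binding was measured.

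Counts over all genes ranged from 6990461 to 9375912 in 8 of the 9 libraries and reached 42770072 in C4-2 replicate 1. Levels are given as CPM, counts scaled to a common library size after the trimmed mean of M-values (TMM) correction. Every one of the 46 genes passed the filter on low counts, with at least 143 counts (SPC25, MR49F replicate 2) and up to 26180 (CDK1, C4-2 replicate 1) in a library. The prostate luminal markers KLK3, KLK2, FOLH1, HOXB13, KRT8 and KRT18 were all detected in each line. KLK3, which encodes prostate-specific antigen, stood at 3601, 3432 and 3271 CPM in MR49F, 4834, 3959 and 4476 CPM in C4-2 and 2592, 2728 and 2770.3 CPM in LNCaP. Of 8 immune markers, PTPRC, CD3D, CD3E and MS4A1 had 0 or 1 count over each line. LYZ, CD14 and CD68 had up to 62, 16 and 10 counts over a line, each with the most in C4-2. The 8 summed to at most 1.75 CPM in any library. Of 8 fibroblast and endothelial markers, COL1A2 and CDH5 had no count, and the sums were 6.80 to 7.48 CPM in MR49F, 24.8 to 29.6 CPM in C4-2 and 29.1 to 33.5 CPM in LNCaP. COL1A1 held most of these counts. The part of these cell types' RNA in the results was not tested.

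As a whole the 46 genes were lowest in MR49F and highest in C4-2. Their summed level was 5013, 5055 and 5360 CPM in MR49F, 6181, 6900.3 and 6188 CPM in C4-2, and 5698, 5797 and 5725 CPM in LNCaP, so that the libraries of the 3 lines did not overlap. By mean CPM, 35 of the 46 genes (76.1%) were lowest in MR49F, where 35.8% of all 15407 tested genes were, and 32 (69.6%) were highest in C4-2, where 36.2% of all tested genes were. The order MR49F below LNCaP below C4-2 held for 27 of the 46 genes, or 58.7%, against 22.0% of tested genes. DNA replication genes, a list of 37, summed to 3427, 3491 and 3507 CPM in MR49F, 4186, 4286 and 3848 CPM in C4-2 and 3671, 3796 and 3697 CPM in LNCaP, which is the same order of the line means. Levels per kilobase were taken over all annotated exons of a gene, not over the transcripts expressed, so they rank genes only roughly. On this scale CDK1 stood highest of the 46, at 164 CPM per kilobase in MR49F, 164 in C4-2 and 138 in LNCaP. CCNB1 came next in LNCaP at 105. ESPL1 (7.19) and TTK (7.19 CPM per kilobase) stood lowest in LNCaP.

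**Figure D2:**
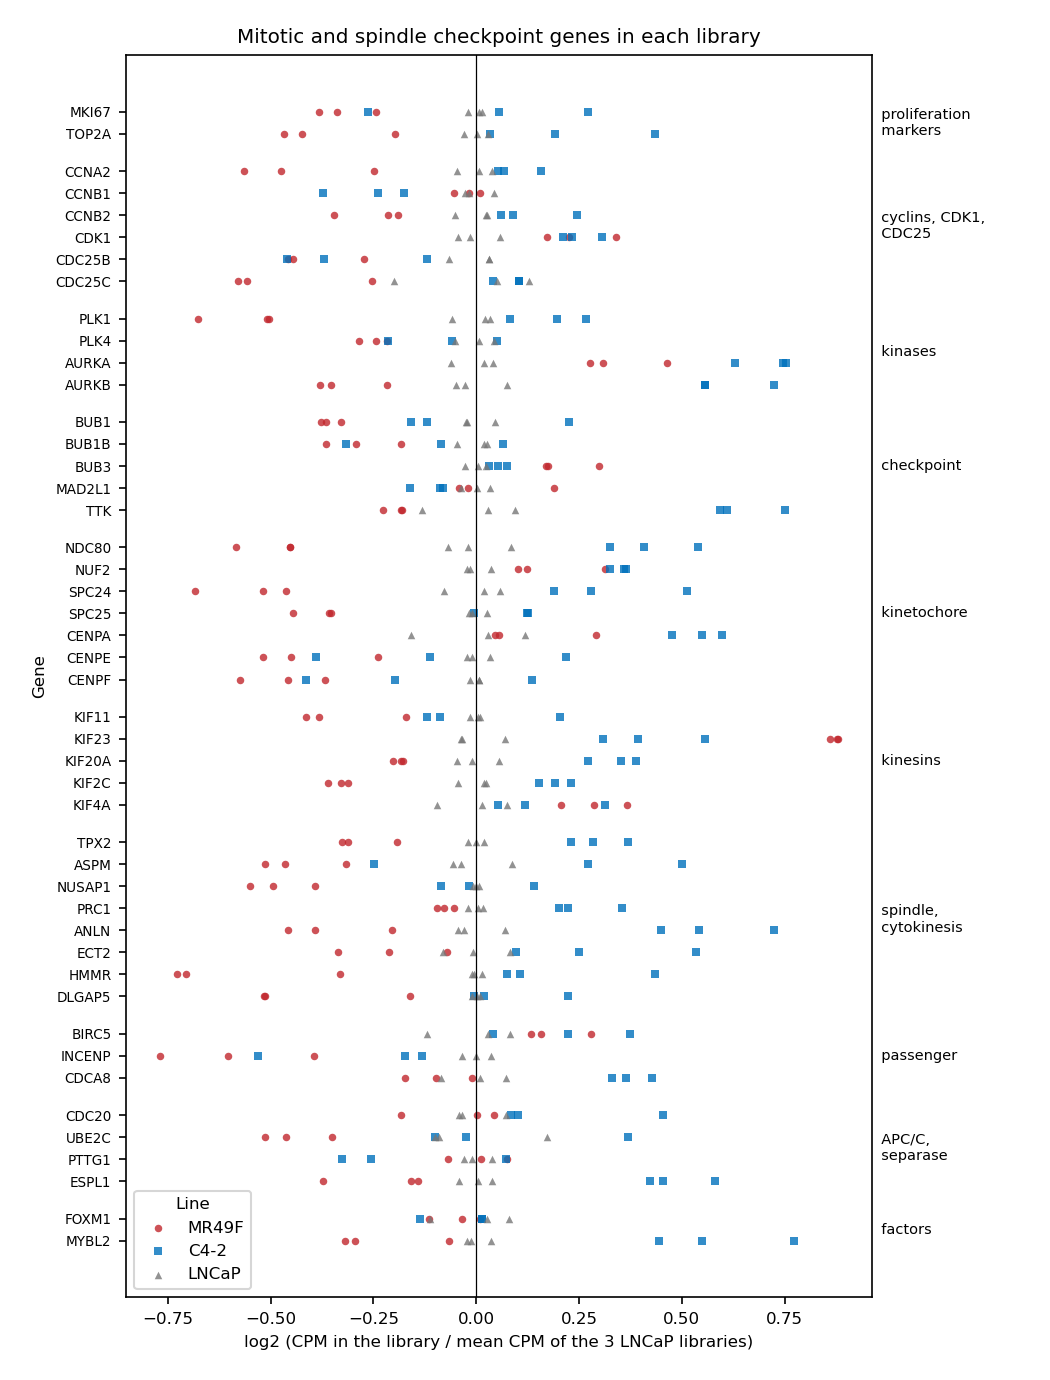
Level of each of the 46 genes in each library, as log2 of its CPM over the mean of the 3 LNCaP libraries, on the horizontal axis, with genes grouped by role on the vertical axis. Circles are MR49F, squares C4-2 and triangles LNCaP. KIF23 in MR49F lies farthest to the right, and most MR49F points lie left of 0.

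In MR49F against LNCaP, 27 of the 46 genes fell, 5 rose and 14 did not pass, at an adjusted p under 0.05 over all tested genes (edgeR quasi-likelihood test, Benjamini-Hochberg). Across all tested genes, 47.0% passed in this comparison, of which the lower ones made up 22.8% of all tested genes and the higher ones 24.1%. The median log2 fold change was -0.28 for the 46 genes and 0.01 for all tested genes. In MR49F against C4-2, 33 fell, 2 rose and 11 did not pass, where 61.0% of all tested genes passed, 31.1% lower and 29.9% higher, with medians of -0.39 and 0.00. In C4-2 against LNCaP, 19 rose, 3 fell and 24 did not pass, where 49.7% of all tested genes passed, 26.2% higher and 23.5% lower, with medians of 0.19 and 0.00. The 3 comparisons share libraries pairwise and are not independent. None of the 46 genes differed by more than 2-fold in any comparison. Across all tested genes, 13.2% passed with more than 2-fold in MR49F against LNCaP, 18.6% in MR49F against C4-2 and 13.2% in C4-2 against LNCaP. The libraries of MR49F lay wholly below those of LNCaP for 31 of the 46 genes (29.1% of all tested genes) and wholly above for 7 (30.7%). Against C4-2 the counts were 31 below (31.3%) and 4 above (30.6%), and for C4-2 against LNCaP 25 above (28.9%) and 4 below (26.8%).

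**Figure D3:**
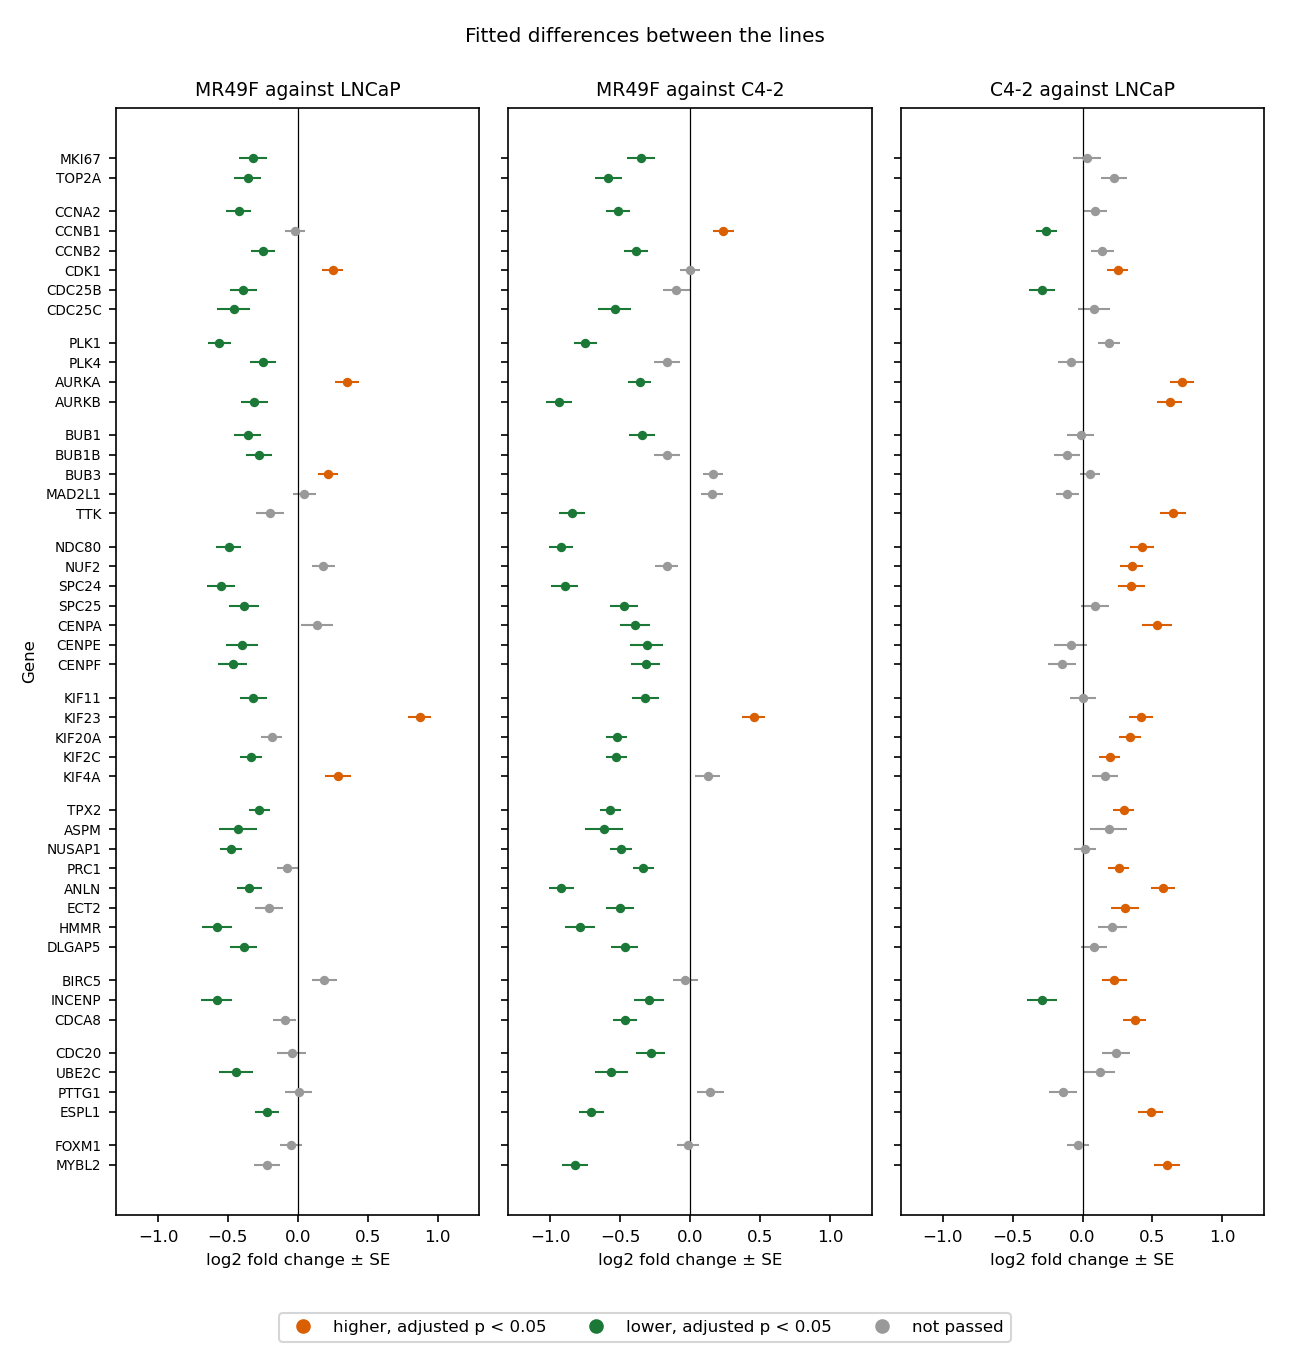
Fitted log2 fold change of each of the 46 genes, with error bars of 1 SE, in MR49F against LNCaP (left), MR49F against C4-2 (middle) and C4-2 against LNCaP (right). Colours mark genes that passed as higher or lower at an adjusted p under 0.05, with 5 higher and 27 lower in the left panel, 2 and 33 in the middle and 19 and 3 on the right.

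The proliferation marker MKI67, which encodes the Ki-67 protein of mitotic chromosomes, was lower in MR49F than in both other lines. Its levels were 241, 257 and 234 CPM in MR49F, 253, 368 and 317 CPM in C4-2 and 307, 306 and 300.1 CPM in LNCaP. The log2 fold change was -0.32 against LNCaP (SE 0.0998, edgeR adjusted p = 0.0123) and -0.35 against C4-2 (adjusted p = 0.00446), although C4-2 replicate 1 lay within the range of the MR49F libraries. TOP2A, which encodes the topoisomerase that untangles sister chromatids, read 225, 219 and 264 CPM in MR49F, 309, 408 and 345 CPM in C4-2 and 308, 296 and 303 CPM in LNCaP. All MR49F libraries lay below all others, and TOP2A fell by 1.28-fold against LNCaP and 1.499-fold against C4-2 (adjusted p = 0.00394 and 1.97e-05). Between C4-2 and LNCaP neither gene passed (log2 fold changes of 0.0331 and 0.23), and both passed once C4-2 replicate 1 was left out (0.17 and 0.32), TOP2A also without MR49F replicate 3 (0.22).

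Among the cyclins, CDK1 and the CDC25 phosphatases, cyclin A and cyclin B2 fell in MR49F against both other lines. CDK1 itself rose in MR49F against LNCaP and did not pass against C4-2 (log2 fold change -0.00178, SE 0.0728). CDK1, the kinase that drives entry into mitosis, stood at 635, 612 and 688 CPM in MR49F, 629, 671 and 638 CPM in C4-2 and 526, 537 and 565 CPM in LNCaP. It was higher than in LNCaP in MR49F (log2 fold change 0.25, adjusted p = 0.00826) and in C4-2 (0.25, adjusted p = 0.00731), and all libraries of both lines lay above all LNCaP libraries. The first call was lost without LNCaP replicate 1 or 2 (log2 fold changes of 0.21 and 0.23) and the second without LNCaP replicate 1 (0.22).
CCNA2, which encodes cyclin A2, measured 73.6, 69.2 and 86.2 CPM in MR49F, 107, 114 and 106 CPM in C4-2 and 103, 105 and 99.1 CPM in LNCaP. Every MR49F library was below every other library, a 1.34-fold fall against LNCaP (adjusted p = 4.88e-04) and a 1.43-fold fall against C4-2 (adjusted p = 3.30e-05). The B-type cyclins differed in pattern. CCNB2 was at 75.9, 69.2 and 77.2 CPM in MR49F, 104, 93.6 and 91.9 CPM in C4-2 and 85.02, 89.5 and 89.6 CPM in LNCaP, and fell in MR49F against LNCaP (-0.25, adjusted p = 0.0204) and against C4-2 (-0.39). The first of these calls was lost without MR49F replicate 2, LNCaP replicate 2 or LNCaP replicate 3 (log2 fold changes of -0.25 to -0.20, adjusted p up to 0.11).
CCNB1 was at 271, 265 and 259 CPM in MR49F, 238, 228 and 207 CPM in C4-2 and 266, 277 and 263 CPM in LNCaP. It was lower in C4-2 than in LNCaP (-0.26, adjusted p = 0.00685) and higher in MR49F than in C4-2 (0.24, adjusted p = 0.00908), and did not pass in MR49F against LNCaP (-0.0203, SE 0.0745). Without C4-2 replicate 3 the call against C4-2 was lost (0.19, adjusted p = 0.0562). Per kilobase, CCNB1 stood at 3.92 ± 0.264 times CCNB2 in MR49F, 2.54 ± 0.102 times in C4-2 and 3.34 ± 0.107 times in LNCaP (SD, n = 3 each).
The CDC25 phosphatases remove the inhibitory phosphates of CDK1. CDC25B read 52.3, 59.5 and 52.8 CPM in MR49F, 66.2, 52.3 and 55.7 CPM in C4-2 and 68.7, 73.5 and 73.5 CPM in LNCaP, and was lower than in LNCaP in both derived lines (-0.39 in MR49F and -0.29 in C4-2). The C4-2 call was lost without C4-2 replicate 2 or 3 or LNCaP replicate 2 or 3 (-0.28 to -0.22, adjusted p up to 0.0623). CDC25C read 21.2, 17.2 and 16.9 CPM in MR49F, 27.2, 27.2 and 26.04 CPM in C4-2 and 27.7, 26.2 and 22.1 CPM in LNCaP, and fell in MR49F against LNCaP (-0.46, adjusted p = 0.00362) and against C4-2 (-0.54). Part of CDC25C's exons (8.78% of their bases) overlaps FAM53C on the opposite strand, where FAM53C had 13649 counts over the 9 libraries and CDC25C had 2666. CCNA2 shares 9.08% of its exon bases with EXOSC9 in the same way. The libraries were made with a stranded kit, but the strand setting of the counting is not given in the sources used here, so these levels are uncertain.

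PLK1 carried the lowest adjusted p among the mitotic kinases in MR49F against LNCaP, and the Aurora kinases moved in opposite directions there. PLK1 (ENSG00000166851, GRCh38 chromosome 16) acts in centrosome maturation, spindle assembly and cytokinesis. It stood at 65.7, 73.99 and 73.8 CPM in MR49F, 126, 120.2 and 111 CPM in C4-2 and 101, 107 and 108 CPM in LNCaP. The MR49F libraries lay below all others, 1.48-fold lower than LNCaP (log2 fold change -0.56, SE 0.0841, adjusted p = 1.35e-05) and 1.68-fold lower than C4-2 (adjusted p = 1.40e-07). Without C4-2 replicate 3, PLK1 also passed as higher in C4-2 than in LNCaP (0.24).
AURKA, the Aurora kinase of spindle poles, stood at 66.5, 65.1 and 74.1 CPM in MR49F, 90.6, 90.1 and 83.1 CPM in C4-2 and 51.5, 55.3 and 54.4 CPM in LNCaP. The lines did not overlap. AURKA was higher than in LNCaP in MR49F (0.35, SE 0.0866, adjusted p = 0.00224) and higher still in C4-2 (0.71, adjusted p = 6.49e-07), with MR49F below C4-2 (-0.36, adjusted p = 8.29e-04).
AURKB, the Aurora kinase of the chromosomal passenger complex, was at 35.5, 31.7 and 32.3 CPM in MR49F, 68.1, 60.6 and 60.7 CPM in C4-2 and 39.8, 40.4 and 43.4 CPM in LNCaP. It was lower in MR49F than in LNCaP (-0.31, adjusted p = 0.0109) and 1.91-fold lower than in C4-2 (log2 fold change -0.94, adjusted p = 2.34e-08), and higher in C4-2 than in LNCaP (0.62). The call against LNCaP was lost without MR49F replicate 2 (-0.28, adjusted p = 0.0518). Per kilobase, AURKA stood at 1.44, 1.57 and 1.76 times AURKB in MR49F, 1.02, 1.14 and 1.05 times in C4-2 and 0.989, 1.05 and 0.96 times in LNCaP.
PLK4, the kinase of centriole duplication, read 38.96, 37.2 and 38.3 CPM in MR49F, 39.03, 46.9 and 43.5 CPM in C4-2 and 45.5, 46.7 and 43.7 CPM in LNCaP. It fell in MR49F against LNCaP (-0.25, adjusted p = 0.0361), and this was lost with DESeq2 (adjusted p = 0.0534) and without MR49F replicate 1 or 2 or LNCaP replicate 1 or 2 (-0.26 to -0.23, adjusted p up to 0.109). Against C4-2 it did not pass (-0.16), and it passed without C4-2 replicate 1 (-0.25).

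**Figure D4:**
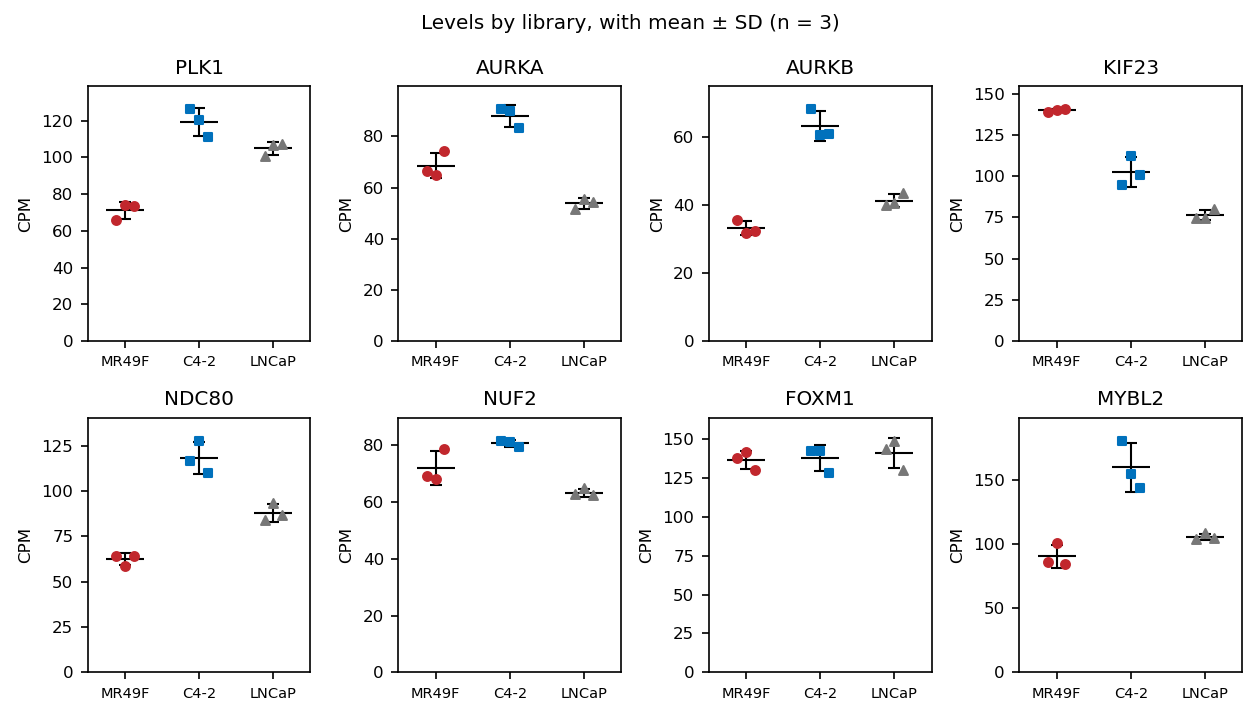
CPM of 8 of the genes in each library, on axes that start at 0, with MR49F, C4-2 and LNCaP from left to right. Points are libraries and bars are the mean ± SD of 3. PLK1, AURKB, NDC80 and MYBL2 are lowest in MR49F, KIF23 is highest there, AURKA and NUF2 are lowest in LNCaP, and the 3 lines overlap for FOXM1.

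Of the 5 spindle checkpoint genes, BUB1 and BUB1B fell and BUB3 rose in MR49F against LNCaP. There 22.8% of all tested genes were lower and 24.1% higher. BUB1, a kinase that recruits checkpoint proteins to kinetochores, stood at 59.97, 60.5 and 62.01 CPM in MR49F, 71.7, 91.1 and 69.8 CPM in C4-2 and 80.4, 76.7 and 76.6 CPM in LNCaP, and fell against LNCaP (-0.36, adjusted p = 0.004603) and C4-2 (-0.34). BUB1B, which encodes BUBR1, an APC/C-inhibiting part of the mitotic checkpoint complex, was at 127, 121 and 137 CPM in MR49F, 125, 163 and 147 CPM in C4-2 and 158, 158 and 150.4 CPM in LNCaP. Its fall against LNCaP (-0.28, adjusted p = 0.0168) was lost without MR49F replicate 1 or 2 (-0.27 and -0.23), and without C4-2 replicate 1 it also fell against C4-2 (-0.27, adjusted p = 0.00193), where it otherwise did not pass (-0.17). Without C4-2 replicate 2 it was lower in C4-2 than in LNCaP (-0.21, adjusted p = 0.0424). BUB1B shares 10.2% of its exon bases with the BUB1B-PAK6 gene on the same strand, which had 0 counts, so its level is uncertain.
BUB3, the partner of BUB1 and BUBR1 at kinetochores, read 250.4, 249.8 and 273 CPM in MR49F, 227, 230.3 and 234 CPM in C4-2 and 218, 226 and 223 CPM in LNCaP. It rose in MR49F against LNCaP (0.22, adjusted p = 0.0185), a call lost without MR49F replicate 3 or any LNCaP library (0.16 to 0.21, adjusted p 0.0639 to 0.1) and without a filter on low counts (adjusted p = 0.0906). Without C4-2 replicate 1 it also passed as higher in MR49F than in C4-2 (0.15). BUB1 to BUB3, per kilobase, was 0.33, 0.333 and 0.312 in MR49F, 0.435, 0.544 and 0.411 in C4-2 and 0.508, 0.468 and 0.474 in LNCaP, so that MR49F did not overlap the other lines. TTK, which encodes the checkpoint kinase MPS1, was at 28.998, 28.1 and 29.05 CPM in MR49F, 50.3, 55.4 and 49.7 CPM in C4-2 and 35.1, 33.6 and 30.1 CPM in LNCaP. C4-2 stood apart for this gene, with a 1.56-fold rise against LNCaP (adjusted p = 7.93e-06) and MR49F 1.798-fold below C4-2 (adjusted p = 1.46e-07). TTK did not pass in MR49F against LNCaP (-0.20, adjusted p = 0.102), except with only those 6 libraries in the fit (-0.22, adjusted p = 0.0396). MAD2L1, which encodes the APC/C inhibitor MAD2, read 104, 106 and 122 CPM in MR49F, 101, 95.8 and 101 CPM in C4-2 and 107, 109.6 and 104 CPM in LNCaP and passed in no comparison (log2 fold changes of 0.0464, 0.16 and -0.11 in MR49F against LNCaP, MR49F against C4-2 and C4-2 against LNCaP).

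At the kinetochore, 3 of the 4 genes of the NDC80 complex, the microtubule-binding tether, fell in MR49F against LNCaP. Of all tested genes, 22.8% were lower there. NDC80 stood at 64.1, 58.6 and 64.2 CPM in MR49F, 116, 128 and 110.0 CPM in C4-2 and 83.7, 93.2 and 86.6 CPM in LNCaP. None of the lines overlapped, with MR49F 1.41-fold below LNCaP (adjusted p = 8.31e-05) and 1.89-fold below C4-2 (log2 fold change -0.92, SE 0.0853, adjusted p = 9.67e-09). Its dimer partner NUF2 was at 68.9, 67.9 and 78.6 CPM in MR49F, 81.5, 81.1 and 79.3 CPM in C4-2 and 62.6, 64.9 and 62.3 CPM in LNCaP. NUF2 did not pass in MR49F against LNCaP (0.18, adjusted p = 0.0813) or C4-2 (-0.17), and was higher in C4-2 than in LNCaP (0.35, adjusted p = 0.00151). It passed as higher in MR49F than in LNCaP without C4-2 replicate 1 (0.18, adjusted p = 0.0363) and as lower than in C4-2 without MR49F replicate 3 (-0.24).
Per kilobase, NDC80 stood at 0.869, 0.805 and 0.763 times NUF2 in MR49F, 1.33, 1.47 and 1.296 times in C4-2 and 1.25, 1.34 and 1.297 times in LNCaP. The ratio was thus lower in each MR49F library than in each of the other 6. Its distance from 1 is not read, since the lengths cover all annotated exons of a gene. SPC24, of the complex's other dimer, was at 44.3, 42.6 and 38.04 CPM in MR49F, 87.1, 74.1 and 69.7 CPM in C4-2 and 61.8, 57.8 and 63.5 CPM in LNCaP, and SPC25 at 18.1, 16.98 and 18.1 CPM in MR49F, 25.2, 25.2 and 23.04 CPM in C4-2 and 22.9, 22.9 and 23.6 CPM in LNCaP. Both fell against LNCaP (-0.55 and -0.38, adjusted p = 1.32e-04 and 0.00571) and against C4-2 (-0.90 and -0.47).
CENPA, the histone H3 variant that marks centromeres, read 23.2, 23.04 and 27.3 CPM in MR49F, 31.03, 32.6 and 33.8 CPM in C4-2 and 19.97, 24.2 and 22.7 CPM in LNCaP. It was highest in C4-2 (0.54 against LNCaP, adjusted p = 3.38e-04), and MR49F was below C4-2 (-0.40) without a call against LNCaP (0.14). It shares 6.96% of its exon bases with SLC35F6 on the same strand, so its level is uncertain. CENPE, a kinetochore motor, was at 84.4, 88.5 and 102 CPM in MR49F, 92.2, 141 and 112 CPM in C4-2 and 119, 124 and 119.9 CPM in LNCaP, and CENPF, a kinetochore and microtubule-associated protein, was at 190.4, 207 and 219.9 CPM in MR49F, 213, 311 and 247 CPM in C4-2 and 285, 285 and 281 CPM in LNCaP. Both fell in MR49F against LNCaP (-0.40 and -0.46, adjusted p = 0.00821 and 9.75e-04), with no overlap. Their calls against C4-2 (-0.31 and -0.32) were lost without C4-2 replicate 2 (-0.15 and -0.17) or MR49F replicate 1 (-0.25 and -0.26), and CENPE's also without MR49F replicate 2 (-0.28) and with limma voom (adjusted p = 0.0527). Without C4-2 replicate 2 both were lower in C4-2 than in LNCaP (-0.26 and -0.31).

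Among the mitotic kinesins, KIF23 ran against most of the list. KIF23 (ENSG00000137807, GRCh38 chromosome 15), the motor of centralspindlin, which bundles midzone microtubules for cytokinesis, was at 139, 140.4 and 141 CPM in MR49F, 94.7, 112 and 100.4 CPM in C4-2 and 74.7, 74.5 and 80.2 CPM in LNCaP. The 3 MR49F libraries lay within a narrow range above every other library. The rise was 1.83-fold against LNCaP (log2 fold change 0.87, SE 0.08301, adjusted p = 2.74e-08) and 1.37-fold against C4-2 (0.45, adjusted p = 6.13e-05), and C4-2 was above LNCaP (0.42, adjusted p = 2.94e-04). This was the lowest adjusted p and the largest log2 fold change, of either sign, among the 46 genes in MR49F against LNCaP. RACGAP1, the other subunit of centralspindlin, named here as the partner of KIF23 after its values were seen, stood at 104, 113 and 110.3 CPM in MR49F, 150.2, 168 and 143 CPM in C4-2 and 119.7, 125 and 133 CPM in LNCaP (log2 fold change -0.20 in MR49F against LNCaP, adjusted p = 0.0519, and -0.49 against C4-2, adjusted p = 2.97e-05). Per kilobase, KIF23 stood at 0.875 ± 0.0328 times RACGAP1 in MR49F, 0.456 ± 0.0249 times in C4-2 and 0.415 ± 0.00915 times in LNCaP (SD, n = 3 each).
KIF20A, the cytokinesis kinesin that brings PLK1 and the passenger complex to the midzone, was at 77.1, 76.96 and 75.96 CPM in MR49F, 111, 114 and 105 CPM in C4-2 and 90.8, 84.5 and 86.7 CPM in LNCaP. It fell against C4-2 (-0.53, adjusted p = 5.99e-06) and missed the threshold against LNCaP (-0.19, adjusted p = 0.0553), which it passed in 6 of 19 other settings, among them the fit without C4-2 replicate 1 or 2 (-0.19 and -0.20). KIF11, which slides spindle poles apart, read 84.04, 82.3 and 97.4 CPM in MR49F, 101, 126 and 103 CPM in C4-2 and 109, 110.2 and 110.0 CPM in LNCaP, and fell against LNCaP (-0.32, adjusted p = 0.00891, or 0.0549 without MR49F replicate 2) and C4-2 (-0.32). KIF2C, a microtubule depolymerase of centromeres, read 64.7, 66.9 and 66.2 CPM in MR49F, 97.3, 94.8 and 92.3 CPM in C4-2 and 84.2, 84.4 and 80.5 CPM in LNCaP. It fell in MR49F against both (-0.33 and -0.53). Its small rise in C4-2 against LNCaP (0.19, adjusted p = 0.0416) was lost in 14 of 19 other settings, among them the removal of any LNCaP or C4-2 library or of MR49F replicate 1 or 2 (0.17 to 0.21).
KIF4A, a chromosome-bound kinesin, stood at 60.95, 64.5 and 68.1 CPM in MR49F, 57.4, 65.7 and 54.8 CPM in C4-2 and 53.4, 55.7 and 49.5 CPM in LNCaP and rose in MR49F against LNCaP (0.29, adjusted p = 0.0154). That call was lost without MR49F replicate 3 or LNCaP replicate 1 or 3 (0.23 to 0.28). KIF4B, a near-identical copy, held counts equal to 7.63% of those of KIF4A in MR49F, 5.56% in C4-2 and 6.23% in LNCaP, so how reads were shared between the copies is not certain, and with the counts of both added together the call was kept.

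Of the 8 spindle assembly and cytokinesis genes, 6 fell in MR49F against LNCaP and all 8 fell against C4-2. Of all tested genes, 22.8% and 31.1% were lower in these comparisons. TPX2, which activates AURKA on spindle microtubules, read 144, 145 and 158 CPM in MR49F, 219.6, 233 and 212 CPM in C4-2 and 183, 178 and 180.4 CPM in LNCaP, with no overlap between lines (-0.28 against LNCaP and -0.57 against C4-2). AURKA to TPX2, per kilobase, was 0.567 ± 0.0136 in MR49F, 0.489 ± 0.0169 in C4-2 and 0.367 ± 0.0184 in LNCaP (SD, n = 3 each). NUSAP1, a microtubule-stabilising protein, was at 172, 165 and 184 CPM in MR49F, 239, 267 and 228 CPM in C4-2 and 241, 243 and 242 CPM in LNCaP, and had the lowest adjusted p of this group against LNCaP (-0.48, SE 0.0787, adjusted p = 4.17e-05). In GENCODE 29, NUSAP1 shares 62.2% of its exon bases with AC087721.2 and PRC1 shares 57.6% with AC068831.7, both on the same strand. Neither of these genes is among the genes counted, and the annotation release used for counting is not given. The levels of NUSAP1 and PRC1 and ratios to them are thus uncertain.
HMMR, a spindle-associated hyaluronan receptor, stood at 109.6, 108 and 142 CPM in MR49F, 188, 242 and 193 CPM in C4-2 and 178, 181 and 178 CPM in LNCaP, and DLGAP5, a spindle microtubule protein, at 84.5, 84.3 and 108 CPM in MR49F, 122, 141 and 120.2 CPM in C4-2 and 119.8, 121 and 121 CPM in LNCaP. For both, MR49F replicate 3 was closer to the other lines than MR49F replicates 1 and 2 were. HMMR fell by 1.49-fold against LNCaP (adjusted p = 1.43e-04) and 1.73-fold against C4-2, and DLGAP5 by 1.31-fold and 1.38-fold. Without C4-2 replicate 1, HMMR was also higher in C4-2 than in LNCaP (0.28). ASPM, a spindle pole protein, read 61.8, 63.9 and 70.9 CPM in MR49F, 74.3, 125 and 106 CPM in C4-2 and 84.9, 86.004 and 93.7 CPM in LNCaP. It fell against both (-0.43 and -0.62), and C4-2 replicate 1 lay below LNCaP while replicates 2 and 3 lay above. Without MR49F replicate 1 or 2 the call against LNCaP was lost (-0.38 and -0.41, adjusted p up to 0.0609), and without C4-2 replicate 1 ASPM was higher in C4-2 than in LNCaP (0.40, adjusted p = 1.16e-04).
ANLN, the scaffold of the contractile ring, was at 143, 149.5 and 170.1 CPM in MR49F, 268, 324 and 286 CPM in C4-2 and 192, 190.3 and 206 CPM in LNCaP. The lines did not overlap, and MR49F was 1.89-fold below C4-2 (adjusted p = 1.41e-08) and 1.27-fold below LNCaP (adjusted p = 0.002802). PRC1, which crosslinks midzone microtubules, read 146, 149 and 144 CPM in MR49F, 177, 197 and 180.1 CPM in C4-2 and 155, 152 and 156 CPM in LNCaP, and ECT2, which activates RhoA for furrow ingression, read 144, 157 and 173 CPM in MR49F, 194, 263 and 216 CPM in C4-2 and 172, 192 and 181 CPM in LNCaP. Both fell against C4-2 (-0.33 and -0.50) and neither passed against LNCaP (-0.0754 and -0.20). ECT2 passed against LNCaP without MR49F replicate 3, C4-2 replicate 1 or C4-2 replicate 2 (-0.28 to -0.20), and its rise in C4-2 against LNCaP (0.30) was lost without C4-2 replicate 2, LNCaP replicate 1 or LNCaP replicate 3 (0.17 to 0.29). KIF23 per kilobase was 0.803 ± 0.0134 times PRC1 in MR49F, 0.465 ± 0.0156 times in C4-2 and 0.416 ± 0.014 times in LNCaP.

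The chromosomal passenger complex couples AURKB to INCENP, survivin (BIRC5) and borealin (CDCA8), and its genes differed in which comparisons they passed. INCENP, the scaffold, stood at 52.5, 60.7 and 46.8 CPM in MR49F, 55.2, 70.7 and 72.8 CPM in C4-2 and 79.7, 77.8 and 81.7 CPM in LNCaP. It fell in MR49F against LNCaP (-0.58, SE 0.1098, adjusted p = 1.94e-04), the most negative log2 fold change of the 46 genes there. It was also lower in C4-2 than in LNCaP (-0.29) and lower in MR49F than in C4-2 (-0.29), but the first of these was lost without C4-2 replicate 1 or LNCaP replicate 1 or 3 (-0.29 to -0.15) and the second without MR49F replicate 1 or 3 or C4-2 replicate 2 or 3 (-0.28 to -0.21).
BIRC5 read 143, 140.1 and 155 CPM in MR49F, 166, 149 and 132 CPM in C4-2 and 130.4, 135 and 118 CPM in LNCaP. It did not pass in MR49F against LNCaP (0.19, adjusted p = 0.0898), and passed as higher without C4-2 replicate 1 (0.19, adjusted p = 0.018) or with only those 6 libraries in the fit (0.17). A rise in C4-2 against LNCaP (0.23, adjusted p = 0.0425) was lost in 13 of 19 other settings, among them the removal of C4-2 replicate 1 or of any MR49F or LNCaP library (0.14 to 0.26). CDCA8 was at 62.5, 66.4 and 59.2 CPM in MR49F, 86.03, 89.96 and 83.99 CPM in C4-2 and 70.3, 67.3 and 62.99 CPM in LNCaP, higher in C4-2 than in LNCaP (0.37) and lower in MR49F than in C4-2 (-0.47). AURKB to BIRC5, per kilobase, was 0.387 ± 0.0346 in MR49F, 0.725 ± 0.0518 in C4-2 and 0.552 ± 0.0659 in LNCaP (SD, n = 3 each).

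Of the genes that end mitosis, UBE2C and ESPL1 fell in MR49F against LNCaP, and CDC20 and PTTG1 did not pass. CDC20, the APC/C activator, read 68.1, 70.1 and 59.9 CPM in MR49F, 93.2, 73.01 and 72.1 CPM in C4-2 and 66.4, 71.6 and 66.03 CPM in LNCaP. It did not pass against LNCaP (-0.0433, SE 0.103), and its fall against C4-2 (-0.28, adjusted p = 0.0196) was lost without C4-2 replicate 1 (-0.14) or MR49F replicate 3 (-0.22). Without C4-2 replicate 2 or 3 it was higher in C4-2 than in LNCaP (0.30). The processed pseudogene CDC20P1 held counts equal to 10.6% of those of CDC20 in MR49F, 8.91% in C4-2 and 12.7% in LNCaP, so the level of CDC20 is uncertain. UBE2C, the ubiquitin-conjugating enzyme of the APC/C, was at 38.6, 43.2 and 39.997 CPM in MR49F, 71.3, 51.5 and 54.2 CPM in C4-2 and 51.5, 62.1 and 51.8 CPM in LNCaP, with all MR49F libraries below the rest (-0.44 against LNCaP, adjusted p = 0.00445, and -0.56 against C4-2).
PTTG1, which encodes securin, the inhibitor of separase, read 72.7, 75.9 and 68.7 CPM in MR49F, 75.8, 60.4 and 57.5 CPM in C4-2 and 71.6, 74.1 and 70.6 CPM in LNCaP. It passed in no comparison with all libraries, and without C4-2 replicate 1 it was lower in C4-2 than in LNCaP (-0.29) and higher in MR49F than in C4-2 (0.30). ESPL1, which encodes separase, stood at 57.2, 57.96 and 49.3 CPM in MR49F, 87.6, 95.5 and 85.7 CPM in C4-2 and 62.1, 64.1 and 65.6 CPM in LNCaP. It was 1.63-fold lower in MR49F than in C4-2 (adjusted p = 6.06e-07) and higher in C4-2 than in LNCaP (0.49). Its call against LNCaP (-0.22, adjusted p = 0.0488) was lost in 11 of 19 other settings, including DESeq2, the replicate block and the removal of any MR49F or LNCaP library or of C4-2 replicate 3 (-0.26 to -0.16). Per kilobase, PTTG1 was 5.85 ± 0.277 times ESPL1 in MR49F, 3.19 ± 0.552 times in C4-2 and 4.98 ± 0.201 times in LNCaP.

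The transcription factor genes of the list, FOXM1 and MYBL2, were unlike each other. FOXM1, which drives late cell cycle genes, was at 138, 142 and 130.0 CPM in MR49F, 142, 142 and 128 CPM in C4-2 and 144, 149 and 130.3 CPM in LNCaP, and the 3 lines overlapped. Its log2 fold changes were -0.04701 (SE 0.0809) in MR49F against LNCaP, -0.0141 (SE 0.0804) against C4-2 and -0.0329 (SE 0.0804) in C4-2 against LNCaP, and it passed under none of the settings tried. FOXM1 shares 15.9% of its exon bases with ITFG2 on the opposite strand, which had 2509 counts over the 9 libraries against 15125 for FOXM1, so its level is uncertain. MYBL2, which encodes B-MYB, stood at 86.1, 101 and 84.7 CPM in MR49F, 180.3, 155 and 144 CPM in C4-2 and 104, 108 and 105 CPM in LNCaP. The lines did not overlap, and C4-2 was 1.52-fold above LNCaP (adjusted p = 1.64e-05) and MR49F 1.77-fold below C4-2 (adjusted p = 1.71e-07). Against LNCaP MYBL2 had a log2 fold change of -0.22 in MR49F (adjusted p = 0.0586) and passed in 7 of 19 other settings, among them the fits without MR49F replicate 2, C4-2 replicate 1 or C4-2 replicate 2 (-0.30 to -0.22). The ratio of FOXM1 to MYBL2 per kilobase was 0.858 ± 0.0552 in MR49F, 0.491 ± 0.0388 in C4-2 and 0.756 ± 0.0435 in LNCaP (SD, n = 3 each).

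The C4-2 replicates differed among themselves in a way that followed exon length. Between C4-2 replicates 2 and 1 the log2 difference of the 46 genes ran from -0.47 (UBE2C) to 0.75 (ASPM), and its Pearson correlation with log2 exon length was 0.742 (Spearman 0.681) across these genes, which share both libraries and are not independent. Across 8628 tested genes with a mean of at least 20 CPM the correlation was 0.551. C4-2 replicate 3 against replicate 1 gave 0.695 over the 46 genes and 0.588 over the 8628, and C4-2 replicate 3 against replicate 2 gave -0.492 (Spearman -0.537) over the 46 genes and -0.166 over the 8628, so replicates 2 and 3 differed with length as well. In LNCaP the 3 such correlations over the 46 genes were -0.321 to 0.297, and in MR49F 0.107 to 0.246. Long transcripts such as ASPM, CENPE, CENPF and MKI67 thus read lower in C4-2 replicate 1 than in C4-2 replicate 2, and short ones such as UBE2C and CDC20 read higher. C4-2 replicate 1 is also the deepest library. With a random 20.1% of its counts kept, the BIRC5 and KIF2C calls in C4-2 against LNCaP were lost. In that setting KIF20A and MYBL2 passed as lower in MR49F than in LNCaP. The part of depth in the difference by exon length was not tested. Without C4-2 replicate 1, 34 genes of the list fell in MR49F against C4-2 and 4 rose, with a median log2 fold change of -0.44. Calls among all tested genes also moved in this comparison. Over the 19 other settings 3962 to 5950 were lower and 3749 to 4681 higher. The log2 fold changes between lines had correlations with log2 exon length of -0.014, 0.116 and -0.171 over the 46 genes in MR49F against LNCaP, MR49F against C4-2 and C4-2 against LNCaP. Over the 8628 genes these were -0.102, -0.052 and -0.052, with a Spearman value of -0.189 in MR49F against LNCaP. The median coefficient of variation of the 46 genes was 6.24% in MR49F, 8.48% in C4-2 and 2.97% in LNCaP.

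**Figure D5:**
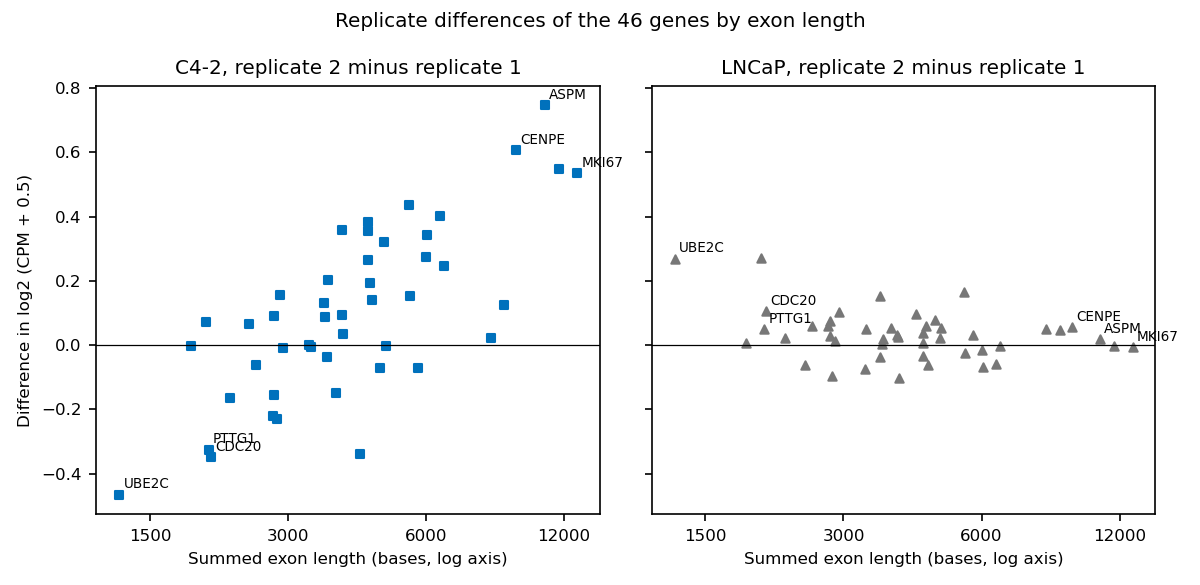
Difference in log2 (CPM + 0.5) between replicates 2 and 1 of C4-2 (left) and LNCaP (right) for the 46 genes, against summed exon length on a log axis. Each point is a gene. In C4-2 the points climb with length (Pearson 0.742), and in LNCaP they lie nearer to 0 (Pearson -0.321).

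Other genes of mitosis and of the cell cycle were taken from lists set beside the 46. Their counts are to be read beside 24.1% of all tested genes higher and 22.8% lower in MR49F against LNCaP, 29.9% and 31.1% in MR49F against C4-2, and 26.2% and 23.5% in C4-2 against LNCaP. Among 34 other spindle, motor and cytokinesis genes, 16 fell and 1 rose in MR49F against LNCaP, 19 fell and 4 rose against C4-2, and 12 rose and 6 fell in C4-2 against LNCaP, with median log2 fold changes of -0.21, -0.33 and 0.05. The lower ones were 47.1% of the list against LNCaP and 55.9% against C4-2. GTSE1, a microtubule-associated protein, fell by 1.97-fold in MR49F against LNCaP (29.4, 30.9 and 31.01 CPM in MR49F against 61.5, 59.99 and 58.4 CPM in LNCaP, adjusted p = 1.22e-08) and 1.98-fold against C4-2. KIFC1, a minus-end kinesin that clusters spindle poles, fell in MR49F against both (-0.66 and -1.27), and HAUS5 of the augmin complex did too (-0.59 and -0.57). DEPDC1 was 3.697-fold higher in C4-2 than in LNCaP (adjusted p = 5.90e-12), and HAUS4 lower (-0.83). HAUS6 passed in no comparison. Among 37 other kinetochore and centromere genes, 4 rose and 7 fell in MR49F against LNCaP, 6 rose and 14 fell against C4-2, and 10 rose and 4 fell in C4-2 against LNCaP (medians -0.02, -0.14 and 0.06). In the first comparison that is 10.8% higher and 18.9% lower, each below the share of all tested genes. CENPN (0.66) and SKA2 (0.54) rose and KNL1 (-0.46), the kinetochore platform of BUB1 and BUBR1, fell in MR49F against LNCaP. SKA3, CENPQ and HJURP, the chaperone of CENPA, were all higher in C4-2 than in LNCaP (1.46, 1.12 and 0.89), and ZWINT passed nowhere.

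The next 3 lists stand beside the same shares, 24.1% of all tested genes higher and 22.8% lower in MR49F against LNCaP, 29.9% and 31.1% in MR49F against C4-2, and 26.2% and 23.5% in C4-2 against LNCaP. Of 20 condensin and cohesin genes, 9 were lower and 1 was higher in MR49F against LNCaP, 9 lower and 4 higher against C4-2, and 4 higher and 7 lower in C4-2 against LNCaP. The condensin genes NCAPG, NCAPD2 and NCAPD3 fell in MR49F against LNCaP (-0.59, -0.40 and -0.42). PDS5A was lower in C4-2 than in LNCaP (-0.997) and STAG1 higher (0.73), while PDS5B was lower in MR49F than in C4-2 (-0.93) and RAD21, the cohesin subunit that separase cuts, passed in no comparison. APC/C subunits and regulators, 17 genes, had 4 higher and 2 lower in MR49F against LNCaP, 4 higher and 3 lower against C4-2, and 3 higher and 4 lower in C4-2 against LNCaP. The 23.5% higher in the first comparison is near the share of all tested genes, and the 11.8% lower is below it. The subunit gene CDC16 and the APC/C activator FZR1 were the lower ones in the first (-0.53 and -0.61) and ANAPC11 was among the higher (0.53). ANAPC1 and CDC23 were lower in C4-2 than in LNCaP (-0.73 and -0.36), and ANAPC16 passed nowhere. Of 10 centrosome duplication genes, 2 rose and 2 fell in MR49F against LNCaP, 3 rose and 3 fell against C4-2, and 1 rose and 2 fell in C4-2 against LNCaP. These shares lie near or below those of all tested genes. CENPJ rose in MR49F (1.03) and C4-2 (1.67) against LNCaP, CEP192 and CEP152 fell in MR49F (-0.43 and -0.42), CEP97 fell in C4-2 (-0.53), and PCNT passed nowhere.

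For lists of cell cycle control the shares over all tested genes were again 24.1% higher and 22.8% lower in MR49F against LNCaP, 29.9% and 31.1% in MR49F against C4-2, and 26.2% and 23.5% in C4-2 against LNCaP. Of 10 tested genes that control CDK1 entry, 3 rose and 3 fell in MR49F against LNCaP, 4 rose and 4 fell against C4-2, and 4 rose and 2 fell in C4-2 against LNCaP. CCNF, which encodes cyclin F, fell in MR49F against LNCaP (-0.72) and C4-2 (-1.04), while MASTL, the Greatwall kinase, and CDC25A rose against LNCaP (0.57 and 0.48). PKMYT1, which holds CDK1 inactive, was lower in MR49F than in C4-2 (-0.85), ARPP19, a Greatwall substrate, was lower in C4-2 than in LNCaP (-0.48), and CKS1B passed nowhere. Among 18 genes of E2F, the RB family and MuvB, 4 rose and 6 fell in MR49F against LNCaP, 5 rose and 7 fell against C4-2, and 6 rose and 1 fell in C4-2 against LNCaP. In the first comparison that is 22.2% higher, near the share of all tested genes, and 33.3% lower. The repressor gene E2F6 and E2F5 rose in MR49F against LNCaP (1.12 and 0.72), and the activator gene E2F2 fell (-0.89). RB1 and RBL1 were higher in C4-2 than in LNCaP (0.46 and 0.35), and LIN9, a MuvB subunit that works with B-MYB, passed in no comparison. Of 13 tested cyclins, CDKs and inhibitors of the first gap phase, 4 rose and 2 fell in MR49F against LNCaP, 3 rose and 6 fell against C4-2, and 7 rose and 4 fell in C4-2 against LNCaP. The CDK inhibitor gene CDKN1B, CCND3 and CCNE2 rose in MR49F against LNCaP (0.30, 0.33 and 0.27). CDK6 was 8.12-fold higher in C4-2 than in LNCaP, at 10.8, 18.2 and 13.2 CPM in C4-2 against 1.495, 1.14 and 2.48 CPM in LNCaP, and CDKN2C and CDKN2D were higher there as well (0.84 and 1.06), while CDKN2A passed nowhere.

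DNA replication genes, 37 in all and each tested, gave 14 lower and 2 higher in MR49F against LNCaP, or 37.8% and 5.41% where all tested genes gave 22.8% and 24.1%. Against C4-2, 20 were lower and 5 higher (31.1% and 29.9% of all tested genes), and in C4-2 against LNCaP 14 were higher and 3 lower (26.2% and 23.5% of all tested genes). Their median log2 fold changes were -0.16, -0.27 and 0.12, each nearer to 0 than the -0.28, -0.39 and 0.19 of the 46 mitotic genes, a difference that was not tested. CDC45 and GINS2, subunits of the replicative helicase, fell in MR49F against LNCaP (-0.76 and -0.82), as did TYMS, while RFC3, a clamp loader subunit, rose (0.40). MCM3 was 2.08-fold higher in C4-2 than in LNCaP (adjusted p = 4.72e-10), and RRM2 passed in no comparison.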

How the data were processed

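RNA of 9 cell line samples was sequenced by the submitters with a stranded TruSeq kit, per the labels' protocols. The deposited table holds raw counts of reads per Ensembl gene, not normalized; the submitters' processing notes list build GRCh38.p12 and the tools TopHat2, HTSeq 0.6.1, FastQC 0.11.3 and edgeR 3.12.1 without saying what each did. A further 3 columns whose names match no sample title were not used. Counts were analysed with edgeR 4.0.16 in R 4.3.3: filterByExpr by line left 15407 genes, library sizes were scaled by TMM, and 1 quasi-likelihood fit over all 9 libraries gave each comparison, with Benjamini-Hochberg adjustment over all tested genes and a threshold of 0.05. The SE is the size of the log2 fold change over the square root of F. The fit code was tested on simulated data. Exon lengths, the summed bases of all annotated exons of a gene, came from GENCODE 29 and promoter windows from RefSeq. Ratios per kilobase between genes depend on these lengths and are compared between lines only. DESeq2 1.42.0, limma 3.58.1 voom, other scaling and filters, a replicate block, random thinning of C4-2 replicate 1 and the removal of each library were tried as alternatives. The 46 genes were all described; of each other list, the named genes are up to 3 with the lowest adjusted p in MR49F against LNCaP, up to 2 with the lowest in each other comparison, and the most abundant gene that passed in none. The genes and lists were chosen with earlier results of these data known. Some prostate marker genes are not reported here.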

Additional observations from a re-analysis of the deposited data

How the results depend on the processing

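Under 19 other settings no call among the 46 genes turned its direction. The median log2 fold change of the 46 genes ranged from -0.30 to -0.26 in MR49F against LNCaP, from -0.44 to -0.37 in MR49F against C4-2 and from 0.14 to 0.21 in C4-2 against LNCaP. Calls were kept in every setting for 19 of 27 lower and 2 of 5 higher genes in MR49F against LNCaP, 29 of 33 lower and 1 of 2 higher in MR49F against C4-2, and 15 of 19 higher and 1 of 3 lower in C4-2 against LNCaP. At an adjusted p under 0.01, 3 genes were higher in MR49F than in LNCaP and 1 was lower in C4-2 than in LNCaP, which follows from the stricter threshold. When 1 library at a time was left out, 2 to 7 genes were higher in MR49F than in LNCaP (2 without LNCaP replicate 1, and 3 without LNCaP replicate 2 or 3 or MR49F replicate 3), 1 to 4 were higher in MR49F than in C4-2 (1 without C4-2 replicate 3, 4 without C4-2 replicate 1), and 1 to 5 were lower in C4-2 than in LNCaP (1 without LNCaP replicate 3, 5 without C4-2 replicate 2); the cause was not tested. Same-numbered samples of different lines deviated with correlations of -0.083 to 0.056, and differently numbered ones with -0.115 to 0.127. Correlations over all genes cannot decide whether same-numbered samples were handled together. With a replicate block 5 genes rose and 26 fell in MR49F against LNCaP, and 2 and 33 in MR49F against C4-2. In C4-2 against LNCaP 17 rose and 3 fell with that block. Over the 19 settings, calls among all tested genes moved as well. In MR49F against LNCaP 2734 to 4399 were higher and 2613 to 4094 lower. In MR49F against C4-2 3749 to 4681 were higher and 3962 to 5950 lower. In C4-2 against LNCaP 3214 to 4670 were higher and 2570 to 3958 lower. Adding the counts of near-identical copies was chosen after seeing the data. Depth limits the 8 shallower libraries, where the lowest count was 143.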

Other observations

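Genes of the list that lie on the same chromosome were set beside all tested genes of that chromosome, where it held at least 4 of them. In C4-2 against LNCaP, all tested genes of chromosomes 1, 5, 10 and 15 had medians of -0.01, -0.10, -0.04 and -0.02. The list's genes there had medians of 0.22, 0.08, 0.04 and 0.14. Chromosomes 20 and 4 are given in more detail. On chromosome 20, where CDC25B, AURKA, TPX2, UBE2C and MYBL2 lie, the 404 tested genes had a median log2 fold change of -0.10 in C4-2 against LNCaP, with 22.5% higher and 31.7% lower, while these 5 genes had a median of 0.30, with 3 higher and 1 lower. In MR49F against C4-2 the 5 had a median of -0.56, with 4 lower. The chromosome had one of 0.17 there, with 39.1% higher and 21.0% lower. On chromosome 4, where CCNA2, PLK4, MAD2L1 and CENPE lie, 47.8% of 546 tested genes were lower in C4-2 than in LNCaP, with a median of -0.27, and none of the 4 genes passed there, with a median of -0.09. In MR49F against C4-2, 50.9% of the 546 genes were higher and 20.7% lower, with a median of 0.30. The 4 genes had a median of -0.24 in that comparison, with 2 lower. Copy number was not measured, and its part in these values was not tested.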
